A study of Homo sapiens with 6 samples.

Results

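The genes described here encode 6 haematopoietic growth factor receptors: EPOR, KIT, CSF1R, CSF2RB, CSF3R and FLT3. Chromatin accessibility around them was measured by ATAC-seq, in which a transposase cuts open chromatin and the reads over a site count those cuts. The members are the sites of the deposited site table that overlap the body of any of these genes extended by 50 kb on each side. This window rule gave 111 of the 181135 sites in the table, and 110 of them, of 177759 in all, had enough reads to be tested. The windows held 13 sites for EPOR, 12 for KIT, 33 for CSF1R, 16 for CSF2RB, 23 for CSF3R and 14 for FLT3, of which 13 were tested for FLT3.

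All samples were the human chronic myelogenous leukaemia line K562 of wild-type genotype. The cells were given 25 nM phorbol 12-myristate 13-acetate (PMA), a protein kinase C activator used to push K562 towards megakaryocytes, for 0, 6 or 72 h, so the 0 h samples are the untreated state. Each of the 3 time points had 2 libraries of 12258890 to 35548737 counts. They held 17669446 and 24470037 counts at 0 h, 12258890 and 33634403 at 6 h, then 30934990 and 35548737 at 72 h. Whether a peak was called can depend on this depth, which was not tested. The labels do not say that the libraries came from separate cultures, so p-values measure the spread between these libraries, which may be technical. A peak within 1 kb of the gene start was present in both 0 h libraries for 7 of 7 K562 markers. Of the megakaryocyte markers 3 of 6 had a peak in both 72 h libraries, against 3 of 6 in both 0 h libraries, and PF4 and PPBP had none at any time. Of the monocyte markers 4 of 6 had peaks in both 0 h libraries and CD14 had none in any library. Among lymphocyte markers, PAX5 and MS4A1 had none either, while CD3E, CD4 and CD8A had peaks in both 0 h libraries.

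These receptors pass growth factor signals to blood progenitors, and each lineage keeps its own subset of them. EPOR, the erythropoietin receptor, CSF3R, the receptor of granulocyte colony-stimulating factor (G-CSF), and CSF2RB, the shared beta chain of the receptors for GM-CSF, IL-3 and IL-5, have no kinase of their own and signal through JAK2 and STAT5 or STAT3. KIT, the stem cell factor receptor of progenitors and mast cells, CSF1R, the receptor of the macrophage growth factor CSF1, and FLT3, the receptor of early myeloid and lymphoid progenitors, are receptor tyrosine kinases of the same class. EPOR marks the erythroid path. The other receptors apart from KIT belong mainly to myeloid cells, and no receptor restricted to megakaryocytes is among the 6.

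The promoters are RefSeq sequences of build GRCh38.p14, 250 bases before to 50 bases after the gene start, and 5 of the 6 genes had an entry. Those of EPOR, CSF1R and FLT3 are printed because the site at the start fell, rose or was almost silent there. Capitals mark matches on either strand. For GATA factors the letters searched were AGATAA and, as a variant of them, TGATAA. The AP-1 pattern searched was TGANTCA, that for PU.1 was GAGGAA, that for RUNX factors was TGTGGT, and the GC box was GGGCGG. None of the marked matches overlap each other, and a match is a letter pattern, not a measured binding site.
EPOR, chr19:11384265-11384564, minus strand: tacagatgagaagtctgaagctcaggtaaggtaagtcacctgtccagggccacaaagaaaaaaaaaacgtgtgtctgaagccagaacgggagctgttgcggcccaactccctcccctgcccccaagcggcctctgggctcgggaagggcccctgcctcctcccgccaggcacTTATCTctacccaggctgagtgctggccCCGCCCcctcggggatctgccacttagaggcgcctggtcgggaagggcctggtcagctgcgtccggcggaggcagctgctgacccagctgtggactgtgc
CSF1R, far start, chr5:150113316-150113615, minus strand: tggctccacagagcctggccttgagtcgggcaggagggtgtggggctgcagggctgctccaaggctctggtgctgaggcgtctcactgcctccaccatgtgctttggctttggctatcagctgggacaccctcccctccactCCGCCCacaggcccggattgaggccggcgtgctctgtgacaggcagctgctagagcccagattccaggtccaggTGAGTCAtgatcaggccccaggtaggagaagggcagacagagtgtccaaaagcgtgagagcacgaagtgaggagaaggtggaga
CSF1R, nearer start, chr5:150086505-150086804, minus strand: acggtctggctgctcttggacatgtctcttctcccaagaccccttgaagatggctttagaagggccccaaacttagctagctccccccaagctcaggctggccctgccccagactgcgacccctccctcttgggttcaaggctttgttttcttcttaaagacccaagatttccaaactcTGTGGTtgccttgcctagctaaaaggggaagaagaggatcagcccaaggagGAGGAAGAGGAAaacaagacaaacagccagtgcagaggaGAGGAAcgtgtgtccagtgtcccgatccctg
FLT3, chr13:28100527-28100826, minus strand: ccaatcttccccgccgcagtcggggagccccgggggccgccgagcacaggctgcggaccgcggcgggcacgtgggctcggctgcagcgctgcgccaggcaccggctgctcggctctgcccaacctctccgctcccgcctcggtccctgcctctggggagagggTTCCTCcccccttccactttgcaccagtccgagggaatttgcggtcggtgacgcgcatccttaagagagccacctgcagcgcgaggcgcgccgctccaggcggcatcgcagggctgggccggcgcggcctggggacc

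The EPOR promoter held a GATA match 78 bases before the start and a GC box 50 bases before it. The far CSF1R promoter, used in trophoblast cells, held an AP-1 match 34 bases before the start and a GC box 108 bases before it. The nearer CSF1R promoter, used in macrophages, held PU.1 matches 20 and 14 bases before and 19 bases after its start, and a RUNX match 71 bases before it. FLT3 held a PU.1 match 87 bases before its start. Over all 22198 promoters of the same length, 12.5% held the GATA pattern, 6.15% AP-1, 27.9% PU.1, 11.3% RUNX and 56.3% the GC box. FLT3 had 34 CpG dinucleotides and KIT 38, above the median of 21 over all promoters, while EPOR had 13 and the CSF1R starts had 8 and 4.

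Accessibility moved in opposite ways around the receptors. At 72 h, 42 of the 110 tested receptor sites were higher than at 0 h and 35 were lower. That was close to the background, in which 67.4% of all sites were called at an adjusted p under 0.05, 38.2% as higher and 29.2% as lower. CSF1R held 21 of the higher sites and 4 of the lower ones, and without it the count turned to 21 higher and 31 lower. At 6 h, 27 sites were higher and 27 lower, beside 40.1% of all sites called, 23.4% as higher and 16.8% as lower. From 6 to 72 h, 29 were higher and 20 lower (42.9% of all sites called, 22.1% as higher and 20.9% as lower), a total of 49 that fell to 29 and 26 calls in all without either 72 h library in turn. The median log2 fold change was 0.17 at 72 h over the receptor sites, against 0.29 over all sites, and -0.26 at 6 h against 0.05. Bulk counts cannot tell fewer cells with an open site from a site less open in every cell.

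These directions are relative to the library scaling. With trimmed mean (TMM) scaling, sites at gene starts fell by a median of 1.23 on the log2 scale at 72 h across the genome, while the other sites had a median of 0.47. Other scalings moved the median of all sites at 72 h from -0.04 to 1.26. Under all 5 scalings tried, 32 receptor sites were called higher and 14 lower at 72 h, against 26.7% and 9.27% of all sites. At 6 h these were 23 and 14 sites, against 18.5% and 8.49%, and from 6 to 72 h 19 and 2, against 14.2% and 3.37%. The 6 h and 72 h changes share the 0 h libraries, so they are 2 readings against the same baseline.

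**Figure D1:**
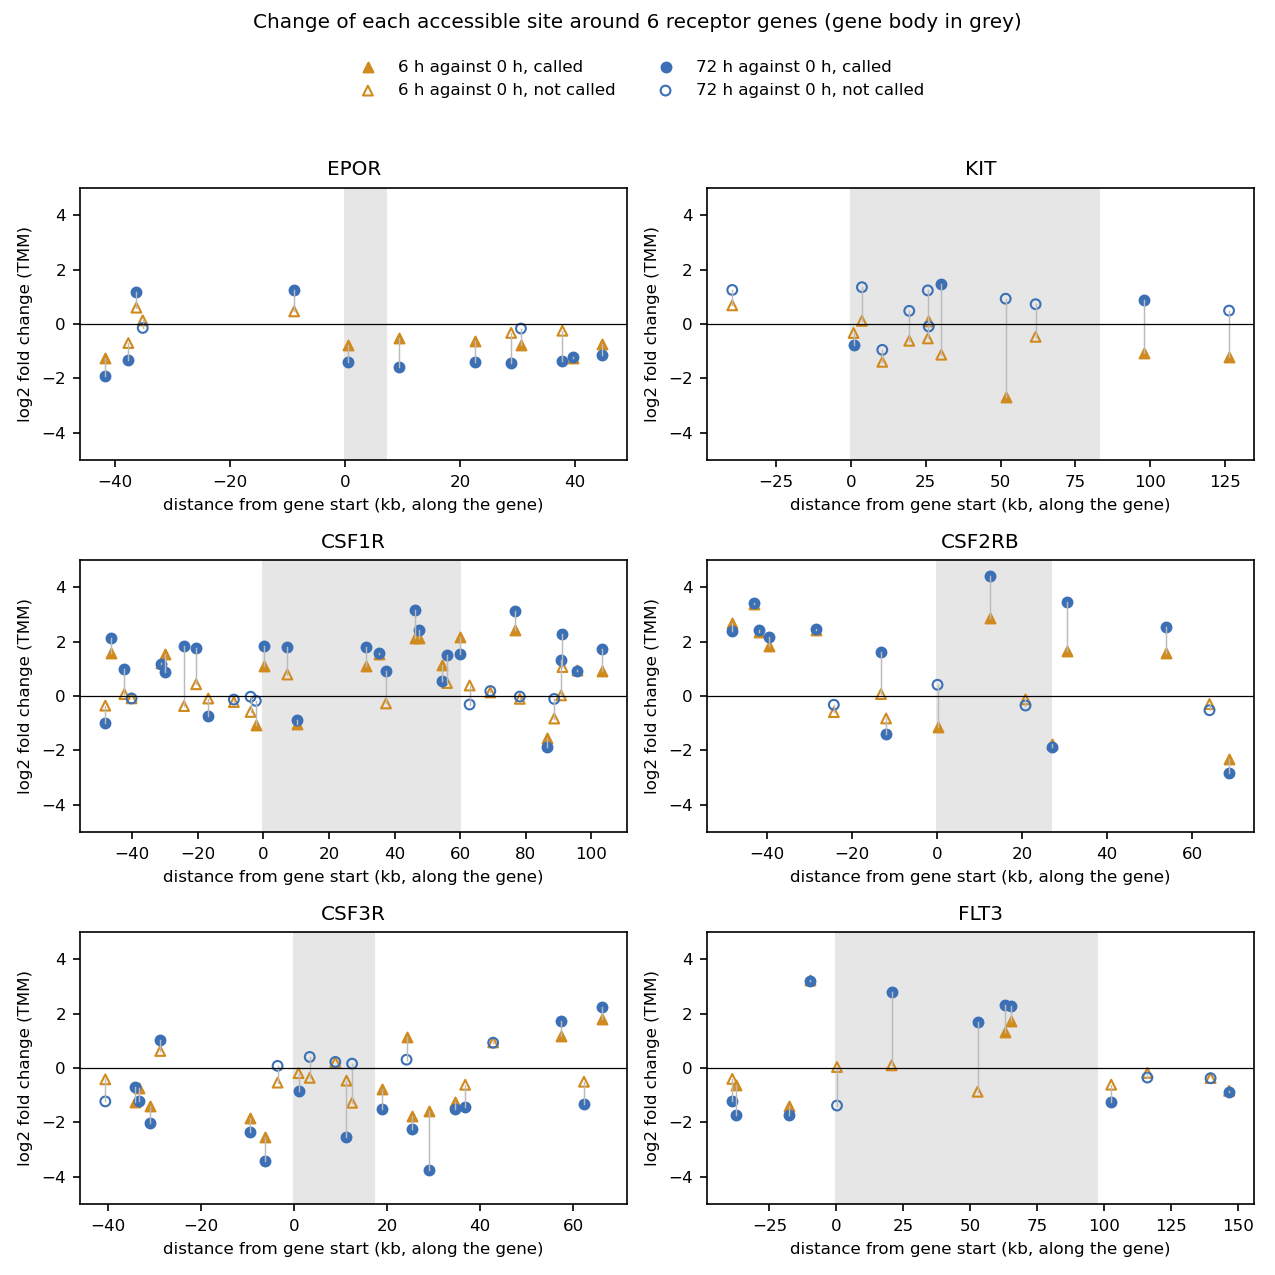
Each panel plots the log2 fold change (TMM scaling) of every tested site around a receptor gene against its distance from the gene start in kb, positive into the gene, with the gene body in grey. Triangles are 6 h and circles 72 h against 0 h, filled where the adjusted p was under 0.05, and most filled points lie below 0 for EPOR (2 higher and 9 lower at 72 h) and above 0 for CSF1R (21 higher and 4 lower). Over all sites 38.2% were higher and 29.2% lower at 72 h. At gene starts, where 6 of the 13 EPOR sites lie, these shares were 8.37% and 75.7%.

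Sites were also counted by place at 72 h, beside 38.2% of all sites higher and 29.2% lower. Of 28 tested sites inside a receptor's own body, away from gene starts, 15 were higher and 2 lower. CSF1R gave 9 of these 15 from 10 sites, and the other receptors gave 6 higher and 1 lower of 18. Of 38 sites in the bodies of other genes, 14 were higher and 11 lower, and of 29 sites between genes 10 were higher and 13 lower. Of 15 sites at gene starts, those of neighbouring genes included, 3 were higher and 9 lower. Across the genome 8.37% of gene start sites were higher and 75.7% lower at 72 h, so the falls at starts are near the background share. At 6 h, 1 of the 15 was higher and 6 lower, against 7.44% and 39.9% (47.3% called in all), and from 6 to 72 h 3 were higher and 7 lower, against 4.38% and 68.9% (73.3% called). At 72 h 84.0% of all gene start sites were called. The start site of CSF1R rose, and those of CSF2RB and FLT3 were not called at 72 h.

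EPOR, on chromosome 19, lost accessibility at its start, as did 75.7% of all gene start sites at 72 h, whose median fell by 1.23. The site at its start (chr19:11382791-11384639), which overlaps the promoter printed above and has a peak in all 6 libraries, read 42.4 and 47.3 CPM (counts per 1000000 counts of the TMM-scaled library) at 0 h. It read 26.1 and 26.8 CPM at 6 h and 17.6 and 16.6 CPM at 72 h. The groups did not overlap and each time point was lower than the earlier one. The log2 fold change was -0.76 ± 0.15 (SE; adjusted p = 0.00039, edgeR) at 6 h and -1.39 ± 0.15 (adjusted p = 7.8e-08) at 72 h, and both falls were called under all 5 scalings. The further step from 6 to 72 h, -0.63 ± 0.15, was not, and it was 0.19 with loess offsets and 0.04 with shared-peak scaling, whose factors come only from sites that carry a peak in every library.

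The rest of the EPOR window belongs mostly to its neighbours. It spans parts of 7 other protein-coding genes, and 77.9% of its signal came from gene start sites. The highest site, at the start of SWSAP1 and 9.4 kb from the EPOR start, had means of 116, 80.9 and 38.6 CPM at the 3 times, but its 72 h change of -1.59 was 0.07 with loess offsets. Within ODAD3, 41.6 kb before the EPOR start, a weak site changed by -1.905 ± 0.44 on the log2 scale (adjusted p = 0.00074) at 72 h, a call lost with shared-peak scaling (-0.95). A site 8.8 kb before the start went the other way. It read 1.11 and 0.96 CPM at 0 h and 2.79 and 2.05 CPM at 72 h, with peaks only in both 72 h libraries. Its log2 fold change was 1.24 ± 0.38 (adjusted p = 0.0064), which became 0.99 (adjusted p = 0.097) without the first 72 h library and 0.57 (adjusted p = 0.20) with loess offsets. In all, 0 EPOR sites were higher and 7 lower at 6 h, and 2 were higher and 9 lower at 72 h. Across the genome 23.4% of sites were higher and 16.8% lower at 6 h, and 38.2% and 29.2% at 72 h. At gene starts, where 6 of the 13 EPOR sites lay, 7.44% of all such sites were higher and 39.9% lower at 6 h. At 72 h these shares were 8.37% and 75.7%.

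KIT, on chromosome 4, is the only protein-coding gene in its window, and most of its sites were weak. The start site (chr4:54658376-54659289), whose nearest edge lies 419 bases inside the gene, gave 48.7% of the window's signal. It read 10.1 and 13.3 CPM at 0 h, 9.63 and 9.08 at 6 h, then 6.96 and 6.81 at 72 h. The 72 h fall was -0.77 ± 0.21 (adjusted p = 0.003). It turned to 0.20 with shared-peak scaling and missed the threshold without the second 0 h library (-0.55, adjusted p = 0.056). At 6 h the change was -0.33 ± 0.22 (adjusted p = 0.23).

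Away from its start, 3 KIT sites are described, one picked for its level, one for its 6 h fall and one for its 72 h rise. In these 3 the mean was lowest at 6 h and highest at 72 h, which the choice of sites in part fixes. The site 30.2 kb into the gene body (chr4:54687778-54688510) read 0.85 and 1.62 CPM at 0 h, 0.34 and 0.70 at 6 h, then 3.80 and 3.18 at 72 h. The 72 h libraries stood above all others, and this site had peaks only there. From 6 to 72 h it rose by 2.59 ± 0.41 on the log2 scale (adjusted p = 3.9e-05), and from 0 to 72 h by 1.46 ± 0.37 (adjusted p = 0.0016), the latter not called with loess offsets (0.71). The site 98.0 kb from the start, beyond the end of the gene (chr4:54755605-54756385), read 2.27 and 2.53 CPM at 0 h, 1.70 and 0.85 at 6 h, then 4.71 and 4.27 at 72 h. The 3 groups did not overlap. Its rise from 6 to 72 h was 1.95 ± 0.34 (adjusted p = 0.00011), while its 6 h fall of 1.05 ± 0.37 (adjusted p = 0.027) was lost without the second 0 h library (-0.98, adjusted p = 0.093) or the second 6 h library (-0.56, adjusted p = 0.36). Its 72 h rise over 0 h, 0.89 ± 0.31 (adjusted p = 0.014), was also lost without the first 0 h library or either 72 h library, with adjusted p of 0.055, 0.11 and 0.057.

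A site 126.3 kb from the KIT start read 1.56 and 1.72 CPM at 0 h, 0.51 and 0.82 at 6 h, then 2.64 and 2.004 at 72 h. Its rise from 6 to 72 h was 1.69 ± 0.39 (adjusted p = 0.0016), and its 6 h fall of 1.20 ± 0.43 (adjusted p = 0.029) was lost without the second 0 h library or the first 6 h library (adjusted p of 0.10 and 0.098). These rises from 6 to 72 h were called under all 5 scalings. Counts behind the 6 h values were small, with 26, 47 and 32 reads in both libraries together. Over the whole window 0 sites were higher and 3 lower at 6 h, 2 higher and 1 lower at 72 h, and 5 higher and 0 lower from 6 to 72 h. The last count compares with 22.1% of all sites called higher and 20.9% lower between these times. Against 0 h, 23.4% of all sites were higher and 16.8% lower at 6 h, and 38.2% and 29.2% at 72 h. For EPOR and KIT the counts of 0, which are edgeR's, were also 0 at an unadjusted p under 0.05 and by DESeq2.

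**Figure D2:**
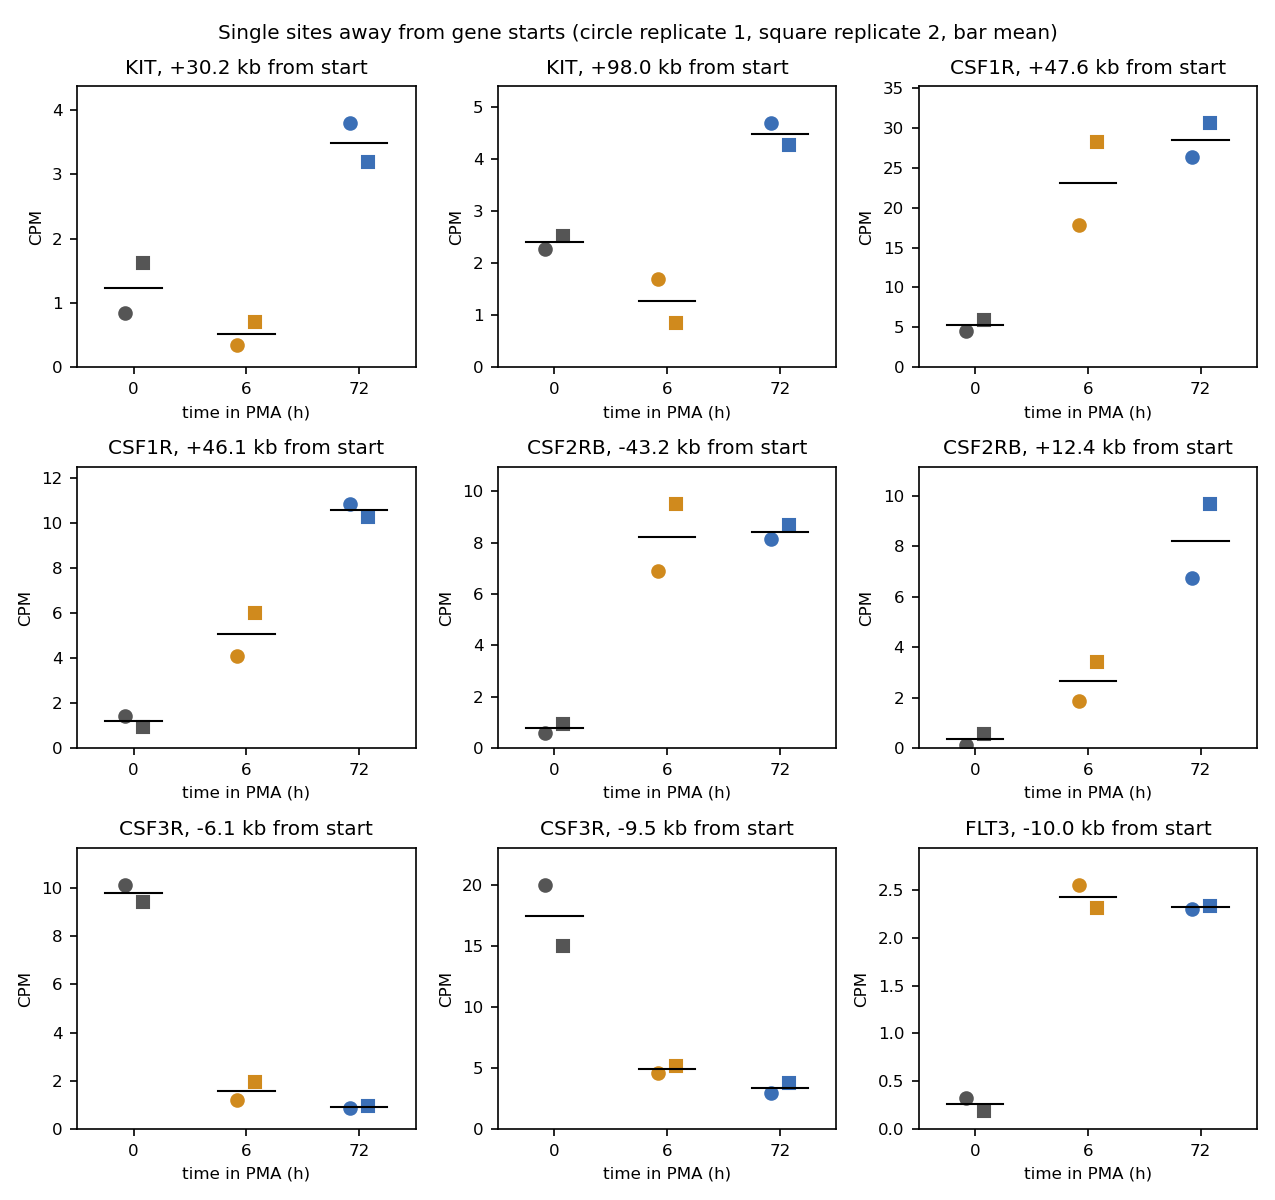
Points show the TMM-scaled CPM of single sites away from gene starts in each library at 0, 6 and 72 h (circle, replicate 1; square, replicate 2; bar, mean of n = 2), with the distance from the receptor's start in each title. KIT sites are lowest at 6 h and highest at 72 h, the CSF1R, CSF2RB and FLT3 sites are lowest at 0 h, and the CSF3R sites are highest at 0 h (10.1 and 9.41 CPM at -6.1 kb). Most of these sites were picked for their rise or fall or after their values were seen, which in part fixes the patterns. Sites not shown went the other way at 72 h, with log2 fold changes of -1.88 (CSF1R), -2.83 (CSF2RB), -1.72 (FLT3) and 2.23 (CSF3R).

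CSF1R, on chromosome 5, opened at its far start and along its body. The site at the far start (chr5:150112516-150113690) overlaps the promoter with the AP-1 match printed above. It read 5.07 and 3.73 CPM at 0 h, 7.24 and 11.0 at 6 h, then 14.4 and 16.6 at 72 h. The groups did not overlap, and peaks were called in 1 library at 0 h, 1 at 6 h and both at 72 h. The rise was 1.096 ± 0.25 on the log2 scale (adjusted p = 0.0012) at 6 h and 1.83 ± 0.24 (adjusted p = 9.7e-07) at 72 h, and both were called under all 5 scalings. Without the second 6 h library the 6 h rise was 0.68 (adjusted p = 0.091). Only 8.37% of gene start sites were called higher at 72 h across the genome. No site lay at the nearer start, and the closest was 4177 bases from it.

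Of 11 sites in the CSF1R body and at its start, 7 were higher and 1 lower at 6 h, and 10 were higher and 1 lower at 72 h. Over all sites, 23.4% were higher and 16.8% lower at 6 h, and 38.2% and 29.2% at 72 h. The site 46.1 kb into the gene (chr5:150066966-150067610) read 1.43 and 0.96 CPM at 0 h, 4.09 and 6.01 at 6 h, then 10.9 and 10.3 at 72 h. It rose at each step. Against 0 h the rise was 2.15 ± 0.31 (adjusted p = 1.1e-05) at 6 h and 3.17 ± 0.30 (adjusted p = 1e-08) at 72 h, the latter a 9.01-fold increase. From 6 to 72 h the rise was 1.03 ± 0.25 (adjusted p = 0.002, edgeR). A stronger site beside it, 47.6 kb from the start and picked after its values were seen, read 4.48 and 5.97 CPM at 0 h, 17.9 and 28.3 at 6 h, then 26.4 and 30.7 at 72 h. Its rises were 2.15 ± 0.22 and 2.44 ± 0.22 (adjusted p = 1.2e-07 and 6.7e-09).

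The CSF1R window also holds parts of HMGXB3 and of PDGFRB, the receptor gene that lies just before CSF1R. Within HMGXB3, 76.7 kb from the CSF1R start (chr5:150036314-150037104), a site read 0.97 and 2.87 CPM at 0 h, 9.46 and 12.1 at 6 h, then 14.2 and 20.8 at 72 h. It rose by 2.44 ± 0.32 at 6 h and 3.12 ± 0.32 at 72 h (adjusted p = 2.9e-06 and 2.6e-08). Another HMGXB3 site, 86.4 kb from the start, fell from 15.3 and 19.9 CPM to 6.22 and 6.01 at 6 h, then 4.24 and 5.35 at 72 h. Its changes were -1.53 ± 0.22 and -1.88 ± 0.22 (adjusted p = 1.2e-05 and 1.8e-07). The highest site of the window, 62.9 kb from the start, did not pass the threshold against 0 h (0.39 ± 0.16 at 6 h and -0.31 ± 0.16 at 72 h). Its 6 h rise was called with total counts (0.52), loess offsets (0.61) and shared-peak scaling (0.68), and with a replicate block (adjusted p = 0.027). Its 72 h change was called lower with relative log expression factors (-0.49), DESeq2 (-0.49) and a replicate block (adjusted p = 0.048), and higher with loess offsets (0.69) and shared-peak scaling (0.66).

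CSF2RB, on chromosome 22, had its greatest 72 h fold change inside the gene. The site 12.4 kb into the body (chr22:36925657-36926359) read 0.13 and 0.57 CPM at 0 h, 1.88 and 3.42 at 6 h, then 6.72 and 9.69 at 72 h. The groups were apart at each step, which the choice of the site in part fixes, since the naming rule required 72 h and 0 h libraries without overlap. Peaks went from 0 libraries at 0 h to 1 at 6 h and both at 72 h. The log2 fold change was 2.86 ± 0.48 (adjusted p = 5.4e-05) at 6 h and 4.42 ± 0.43 (adjusted p = 1.7e-08) at 72 h, the highest of any receptor site. It rests on 14 reads at 0 h, 130 at 6 h and 671 at 72 h. At the start site (chr22:36913258-36914251) the libraries read 5.46 and 2.87 CPM at 0 h, 1.28 and 2.21 at 6 h, then 6.29 and 4.64 at 72 h. From 6 to 72 h this site rose by 1.55 ± 0.33 (adjusted p = 0.00071), while 4.38% of gene start sites were called higher between those times. Its 6 h fall of 1.14 ± 0.35 (adjusted p = 0.012) was lost without the first 0 h library (-0.68, adjusted p = 0.17) or the first 6 h library (-0.88, adjusted p = 0.076). At 72 h it differed from 0 h by 0.41 ± 0.31 (adjusted p = 0.24), which passed without the first 0 h library (0.92, adjusted p = 0.025).

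The neighbour of CSF2RB is NCF4, a subunit of the phagocyte NADPH oxidase. Within NCF4, 43.2 kb before the CSF2RB start (chr22:36870105-36870761), a site read 0.58 and 0.96 CPM at 0 h, 6.90 and 9.52 at 6 h, then 8.15 and 8.70 at 72 h. It rose by 3.39 ± 0.32 (adjusted p = 3.3e-08) at 6 h and differed by 0.01 ± 0.24 (adjusted p = 0.97) between 6 and 72 h. The fall in the window that met the naming rule was 68.7 kb from the start, where 6.17 and 5.88 CPM at 0 h became 1.28 and 1.17 at 6 h, then 1.06 and 0.64 at 72 h. That was -2.31 ± 0.34 at 6 h and -2.83 ± 0.33 at 72 h (adjusted p = 1.3e-05 and 1.6e-07), with peaks only in both 0 h libraries. The highest site other than the start, 64.1 kb from it, changed by -0.29 ± 0.25 and -0.52 ± 0.24 (adjusted p = 0.37 and 0.062). The window had 8 higher and 3 lower sites at 6 h, and 9 higher and 3 lower at 72 h. The shares of all sites were 23.4% higher and 16.8% lower at 6 h, and 38.2% and 29.2% at 72 h.

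CSF3R, on chromosome 1, lost accessibility mainly at sites before its start and beyond its end. The site 6.1 kb before the start (chr1:36489143-36489728) read 10.1 and 9.41 CPM at 0 h, 1.19 and 1.96 at 6 h, then 0.88 and 0.94 at 72 h. Both 0 h libraries stood far above the other 4, and peaks were called at 0 h only. This site was picked for its 6 h fall among sites whose libraries did not overlap, which in part fixes the pattern. The fall was 2.54 ± 0.29 on the log2 scale (adjusted p = 5.5e-07) at 6 h and 3.41 ± 0.29 (adjusted p = 3.3e-09) at 72 h. A stronger site 9.5 kb before the start, picked after its values were seen, went from 20.0 and 15.0 CPM to 4.60 and 5.19 at 6 h, then 2.95 and 3.80 at 72 h, with changes of -1.82 ± 0.24 and -2.37 ± 0.23. At 29.1 kb from the start, past the gene's end (chr1:36454062-36454446), 2.66 and 3.97 CPM at 0 h became 1.19 and 1.08 at 6 h, then 0.28 and 0.21 at 72 h. The 72 h fall there was 3.73 ± 0.43 (adjusted p = 1.7e-07), and the 6 h fall of 1.57 ± 0.39 (adjusted p = 0.0028) was -1.24 (adjusted p = 0.053) without the second 0 h library.

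The CSF3R start site (chr1:36481892-36482661), 653 bases inside the gene, read 5.85 and 5.78 CPM at 0 h, 5.45 and 4.84 at 6 h, then 3.29 and 3.11 at 72 h. It differed by -0.19 ± 0.25 (adjusted p = 0.58) at 6 h and fell by 0.86 ± 0.25 (adjusted p = 0.0041) at 72 h. The latter was 0.11 with shared-peak scaling and lost its call without the second 72 h library (-0.82, adjusted p = 0.052). Of 5 sites in the body and at the start, 0 were called at 6 h in the edgeR test (1 at an unadjusted p under 0.05, 0 by DESeq2) and 2, both lower, at 72 h. The highest site, at the start of MRPS15, a mitochondrial ribosomal protein gene 18.9 kb away, fell from 37.0 to 21.5 and 13.2 CPM. A site 66.2 kb from the start rose, from 0.97 and 2.10 CPM to 4.43 and 6.45 at 6 h, then 7.01 and 7.88 at 72 h (log2 fold changes of 1.81 ± 0.32 and 2.23 ± 0.31). In all, 3 sites were higher and 9 lower at 6 h, and 3 were higher and 13 lower at 72 h. Among all sites these shares were 23.4% and 16.8% at 6 h, and 38.2% and 29.2% at 72 h.

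FLT3, on chromosome 13, had almost no signal at its start. The start site (chr13:28100259-28100458), 118 bases inside the gene whose promoter is printed above, had a peak in none of the 6 libraries and held 14 reads at 0 h, 17 at 6 h and 12 at 72 h. Its changes, 0.04 ± 0.72 and -1.38 ± 0.74 (adjusted p = 0.97 and 0.10), could not be told from 0 at this depth, and the second was called with loess offsets (-2.42, adjusted p = 0.0067). Sites in its body and 10.0 kb before the start did rise. The latter (chr13:28110299-28110921) read 0.32 and 0.19 CPM at 0 h, 2.56 and 2.31 at 6 h, then 2.30 and 2.33 at 72 h. Its rise was 3.25 ± 0.48 at 6 h and 3.19 ± 0.47 at 72 h (adjusted p = 1.4e-05 and 4.1e-06), from 9 reads at 0 h. This site was picked for its rise among called sites whose libraries did not overlap, which in part fixes the pattern. It passed the mean CPM floor of 1 only through its 6 h and 72 h libraries. Of 5 tested sites in the body and at the start, 2 were higher at 6 h and 4 at 72 h, and 0 were lower at either time, also at an unadjusted p under 0.05 and by DESeq2. Over all sites, 23.4% were higher and 16.8% lower at 6 h, and 38.2% and 29.2% at 72 h, by edgeR.

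Most of the FLT3 window's signal, 60.4%, lay at gene starts, and its highest site is a start of PAN3, a poly(A) nuclease subunit gene. That PAN3 site read 24.4 and 22.2 CPM at 0 h, 14.2 and 20.7 at 6 h, then 9.75 and 10.6 at 72 h (-0.40 ± 0.19 at 6 h, adjusted p = 0.10, and -1.20 ± 0.19 at 72 h, adjusted p = 1.3e-05). The 6 h value passed without the second 6 h library (-0.77, adjusted p = 0.017), and the 72 h call was lost with shared-peak scaling (-0.23). Another PAN3 start site fell by 1.73 ± 0.24 at 72 h (adjusted p = 1.7e-06). A site 17.6 kb before the FLT3 start had peaks in both 0 h libraries only and went from 2.27 and 2.29 CPM to 1.19 and 0.66 at 6 h, then 0.67 and 0.71 at 72 h. Its changes were -1.41 ± 0.43 (adjusted p = 0.012) and -1.72 ± 0.40 (adjusted p = 0.00073). The 6 h call was lost without the second 6 h library (-0.99, adjusted p = 0.16), and both were lost with shared-peak scaling.

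**Figure D3:**
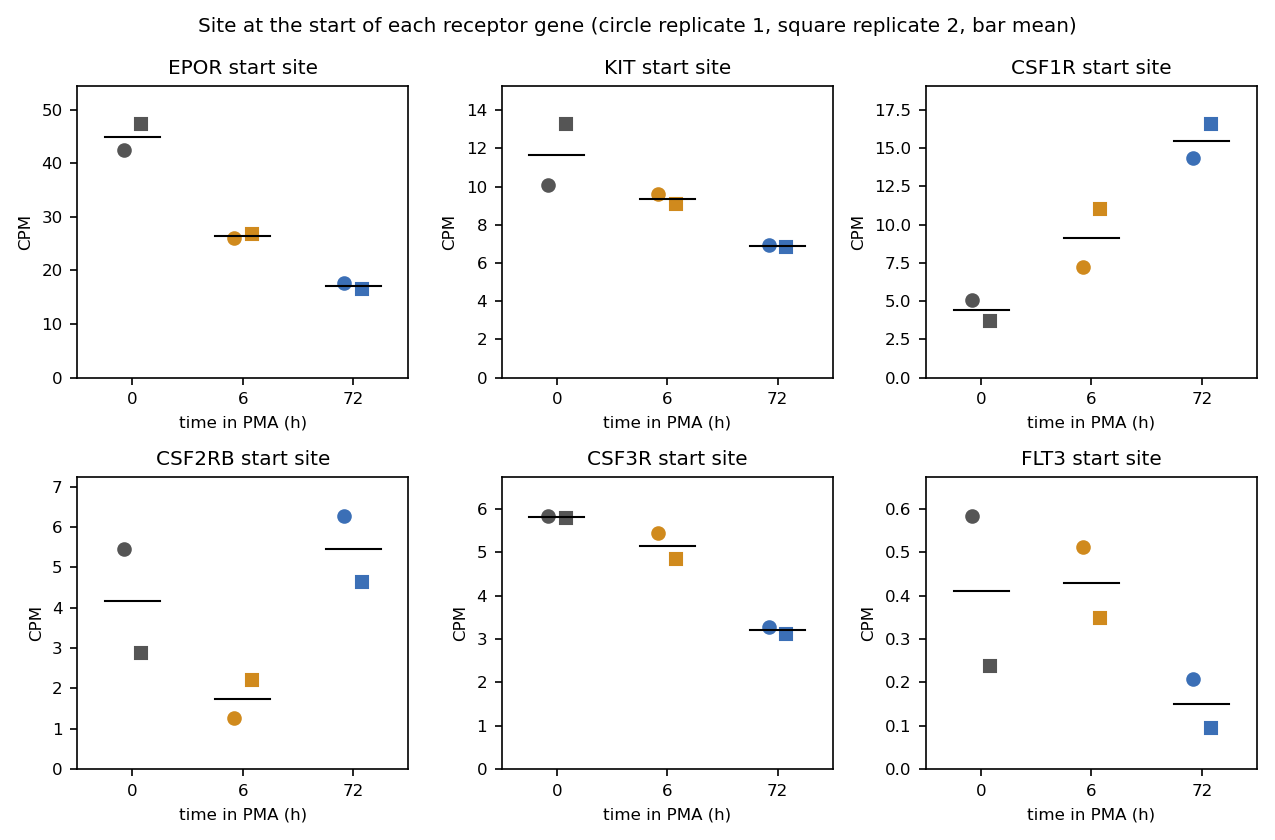
Points show the TMM-scaled CPM of the site at each receptor's start in each library at 0, 6 and 72 h (circle, replicate 1; square, replicate 2; bar, mean of n = 2), each panel with its own axis from 0. The EPOR site falls from 42.4 and 47.3 to 17.6 and 16.6 CPM, the CSF1R site rises from 5.07 and 3.73 to 14.4 and 16.6 CPM, and the FLT3 site stays below 1 CPM.

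Counts summed over each window gave 1 value per gene for all 19307 protein-coding genes with testable windows. Most windows changed, 87.2% at 72 h (15.8% higher, 71.3% lower) and 62.1% at 6 h (14.7% higher, 47.4% lower), and 80.7% changed from 6 to 72 h (12.7% higher, 68.0% lower). The median window changed by -0.72 at 72 h and -0.23 at 6 h. Depending on the scaling this median ran from -0.90 to 0.25 at 72 h, so each receptor is also given relative to it. Windows of neighbouring genes share sites, and a window is not the gene's own activity.

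The EPOR window fell from 282 and 279 CPM at 0 h to 196 and 193 at 6 h, then 113 and 110 at 72 h. Its 72 h change was -1.33 ± 0.08 (adjusted p = 1.7e-10), which is -0.61 relative to the median window, and 9.23% of windows had a lower value. The CSF3R window fell from 146 and 144 CPM to 85.3 and 97.1 at 6 h, then 77.6 and 75.2 at 72 h. Most of that fall was complete at 6 h, when its change of -0.66 ± 0.09 (adjusted p = 1.5e-05) had 5.24% of windows below it. That 6 h fall was lost with windows of 100 kb (-0.08, adjusted p = 0.48). At 72 h the change was -0.92 ± 0.09 (-0.21 relative to the median), and it was 0.04 with shared-peak scaling. The FLT3 window went from 47.2 and 44.4 CPM to 35.5 and 39.2 and then 30.9 and 31.1, a 72 h change of -0.56 ± 0.11 (adjusted p = 0.00012). That sat 0.15 above the median window, turned to 0.40 with the same scaling, and was 1.57 (adjusted p = 7.1e-07) when the window reached only 10 kb beyond the gene, which leaves out PAN3.

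The CSF1R window rose from 173 and 187 CPM to 242 and 271 at 6 h, then 265 and 299 at 72 h. Its changes were 0.51 ± 0.10 (adjusted p = 0.00026) and 0.65 ± 0.09 (adjusted p = 4e-06), or 0.74 and 1.36 relative to the median. With 100 kb on each side the 72 h change missed the threshold (0.17, adjusted p = 0.083). From 6 to 72 h the CSF1R window changed by 0.13 ± 0.09 (adjusted p = 0.19, edgeR), and those libraries overlapped. This step was called with total counts (0.50), loess offsets (0.83) and shared-peak scaling (0.81). The CSF2RB window read 32.0 and 29.3 CPM at 0 h, 33.5 and 45.3 at 6 h, then 51.8 and 56.0 at 72 h. It rose by 0.82 ± 0.13 at 72 h (adjusted p = 1.1e-05), 1.53 relative to the median. The CSF2RB rise of 0.38 ± 0.13 at 6 h (adjusted p = 0.019) rested on the second 6 h library, without which it was 0.08, was also lost without the second 0 h library (0.33), and was -0.33 with 10 kb on each side. Its step from 6 to 72 h, 0.43 ± 0.13 (adjusted p = 0.0048), was lost without the first 6 h library (0.25).

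The KIT window read 18.1 and 22.6 CPM at 0 h, 15.2 and 13.7 at 6 h, then 24.3 and 20.8 at 72 h. Groups 0 h and 72 h overlapped, and their difference of 0.14 ± 0.15 (adjusted p = 0.39) was 0.86 above the median window. The difference was called higher with total counts (0.64, adjusted p = 0.0016) and shared-peak scaling (1.11, adjusted p = 1.1e-05). KIT rose by 0.65 ± 0.16 from 6 to 72 h (adjusted p = 0.00087), and 93.0% of windows lay below it. This step was not called with windows of 10 kb (0.33, adjusted p = 0.077) or 100 kb (0.08, adjusted p = 0.49). Its 6 h fall of 0.52 ± 0.16 (adjusted p = 0.011) was lost without the second 0 h library (-0.34) or the second 6 h library (-0.49).

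**Figure D4:**
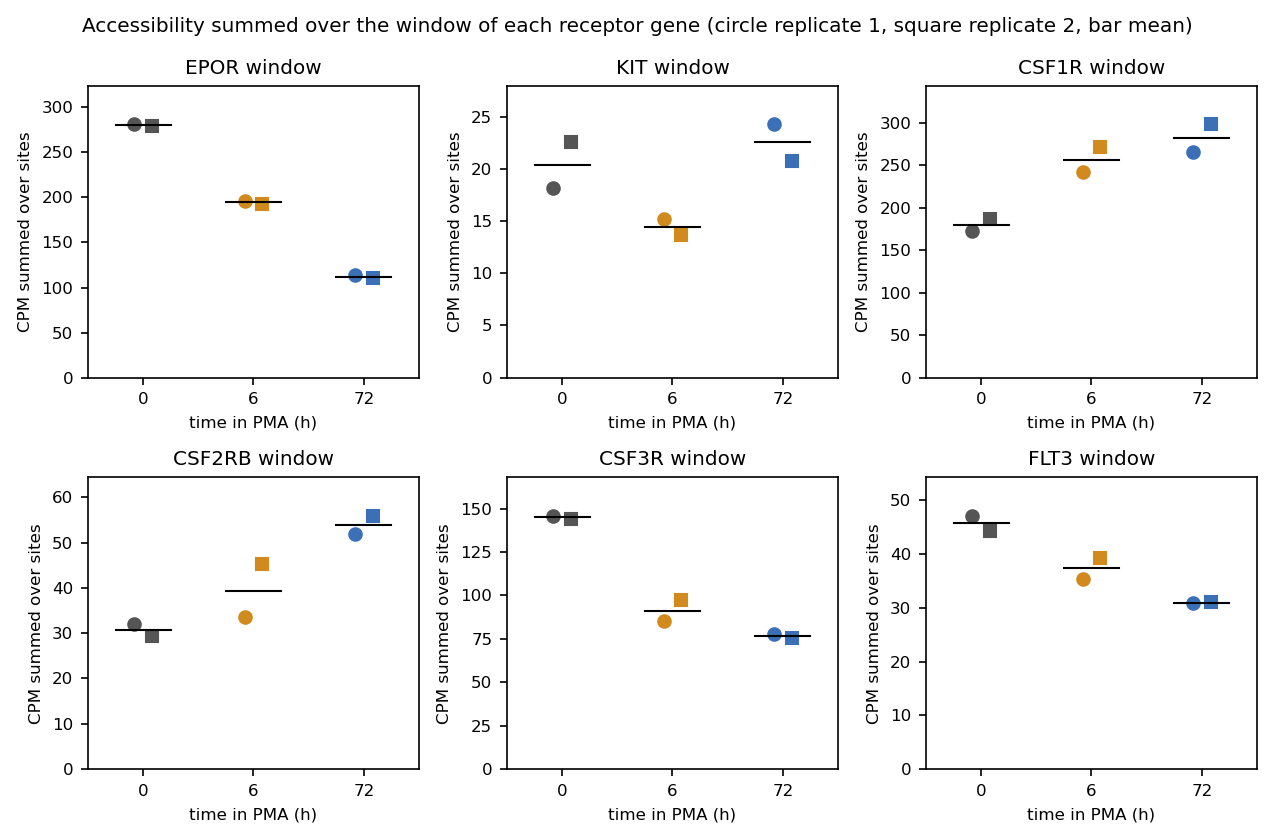
Points show the TMM-scaled CPM summed over all sites of each receptor's window in each library at 0, 6 and 72 h (circle, replicate 1; square, replicate 2; bar, mean of n = 2), each panel with its own axis from 0. EPOR, CSF3R and FLT3 step down, CSF1R and CSF2RB step up, and KIT dips to 15.2 and 13.7 CPM at 6 h, although the FLT3 fall and the later CSF3R fall turn with other scalings. The CSF1R step from 6 to 72 h was not called (0.13, adjusted p = 0.19, edgeR).

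Per 10 kb of window, the order at 0 h was EPOR with 26.2 CPM, CSF3R with 12.4, CSF1R with 11.3, CSF2RB with 2.42, FLT3 with 2.32 and KIT with 1.11. The libraries of CSF2RB and FLT3 overlapped at 0 h, and the other neighbours in the order did not. Within each 0 h library CSF2RB was above FLT3, with 2.52 against 2.39 and 2.31 against 2.25 CPM. At 72 h CSF1R led with 17.6 CPM, followed by EPOR with 10.4, CSF3R with 6.52, CSF2RB with 4.25, FLT3 with 1.57 and KIT with 1.23. No neighbours overlapped then. These sums include sites of neighbouring genes. Gene start sites, those of neighbouring genes included, gave 77.9% of the EPOR signal and 5.79% of the CSF1R signal. Differences between receptors in their change were not tested.

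Peaks called by the authors in single libraries followed the genome. The receptor windows held 42 and 50 peaks at 0 h, 48 and 64 at 6 h, then 93 and 84 at 72 h, which was 0.059% to 0.073% of each library's peaks. Library depth also differed between the times, and its effect on these peak counts was not tested. Of the 111 sites, 24 had a peak in all 6 libraries and 19 only in both 72 h libraries, 21.6% and 17.1%, against 19.8% and 18.2% of all sites.

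The partners of these receptors were read from the same window sums, of which 15.8% were higher and 71.3% lower at 72 h over all genes. Of 8 other receptors, 5 were higher and 3 lower at 72 h, and 7 of the 8 lay above the median window. Total counts, loess offsets and shared-peak scaling each made this 7 higher and 1 lower, and relative log expression factors 4 higher and 3 lower. CSF2RA, the alpha chain that joins CSF2RB in the GM-CSF receptor, rose by 1.89 ± 0.16 (adjusted p = 8.9e-08) at 6 h and 2.21 ± 0.15 (adjusted p = 3.9e-10) at 72 h. IL3RA, the alpha chain of the IL-3 receptor, fell by 1.43 ± 0.10 at 72 h (adjusted p = 3.3e-10). KDR and PDGFRA, the receptor tyrosine kinase genes on either side of KIT, rose by 1.89 ± 0.15 and 0.94 ± 0.14 at 72 h (adjusted p = 1.6e-09 and 6.8e-06). PDGFRB rose by 0.70 at 72 h, but its window shares sites with that of CSF1R. These directions of CSF2RA, IL3RA, KDR, PDGFRA and PDGFRB at 72 h were called under all 5 scalings.

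Of 10 ligand genes, 3 were higher and 6 lower at 72 h, beside 71.3% of all windows lower. Their median change was -0.85 (0.12 with shared-peak scaling), and 4 of the 10 lay above the median window. CSF1, the CSF1R ligand, and the neighbouring genes IL3 and CSF2, ligands of the CSF2RB receptors, were the higher ones, by 0.28, 0.58 and 0.48. The rise of CSF1 missed the threshold with relative log expression factors. As windows of neighbouring genes share sites, the IL3 and CSF2 values are not independent. FLT3LG, the FLT3 ligand, fell by 1.66 ± 0.10 (adjusted p = 9.8e-11), and was called lower under all 5 scalings. KITLG had a single site and changed by 0.28 ± 0.27 (adjusted p = 0.35).

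Of 15 kinases and adaptors, 0 were higher and 14 lower at 72 h, beside 15.8% and 71.3% of all windows, and their median change was -1.07, with 3 of 15 above the median window. With shared-peak scaling 3 were higher and 6 lower, with a median of -0.10. No member was higher at an unadjusted p under 0.05 or by DESeq2 either. JAK2, the kinase bound to EPOR and CSF2RB, differed by -0.21 ± 0.13 (adjusted p = 0.17) at 6 h and fell by 1.43 ± 0.13 (adjusted p = 7.7e-09) at 72 h. STAT5A and STAT5B, which share part of their windows on chromosome 17, fell by 1.47 and 1.46. All 3 genes were called lower at 72 h under all 5 scalings. Of 10 feedback inhibitors, 0 were higher and 7 lower at 72 h, a share lower near that of all windows, 71.3% (0 higher at an unadjusted p under 0.05 and by DESeq2), with a median of -0.50 and 7 of 10 above the median window. This list turned with the scaling, to 7 higher and 2 lower and a median of 0.47 with shared-peak scaling. DUSP6, an ERK phosphatase, rose by 0.59 ± 0.09 (adjusted p = 3.5e-05) at 6 h and differed by 0.15 ± 0.09 (adjusted p = 0.10) at 72 h. The 72 h value was called higher with total counts (0.65), loess offsets (0.89) and shared-peak scaling (1.12).

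The gene windows most like each receptor were found from the root mean square difference of log2 CPM, each gene centred on its own mean, over the 6 libraries. They were PKNOX1 for EPOR (0.018), POTEM for KIT (0.086), RNASE3 for CSF1R (0.029), NTN1 for CSF2RB (0.062), WNT8A for CSF3R (0.040) and GOLGA8N for FLT3 (0.017). Among the receptors themselves, CSF1R and CSF2RB were closest (0.17), with CSF1R at place 231 of 17793 windows compared with CSF2RB. CSF3R and FLT3 differed by 0.18, EPOR and CSF2RB by 0.89.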

How the data were processed

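Omni-ATAC, a protocol for ATAC-seq that the labels name, was run on 6 K562 libraries, 2 at each of 3 times in PMA. The authors deposited whole-number read counts per site and library, treated here as raw counts. Their table also holds log2 fold changes and an adjusted p-value, which the authors deposited as the same value for both times. The deposited peak lists, 1 per library, give a score, a fold enrichment ratio and −log10 p and q per peak, used only to say where a peak was called. Per the submitters' processing notes, Trim Galore 0.4.3, BWA 0.7.17, SAMtools 1.9, deepTools 3.0.1, MACS2, bedtools 2.26, DESeq and hg38 were used. Their roles, how the site list was made and whether read ends were shifted are not given in the sources used here. Reads from cuts near a site's edge can therefore count or not. The labels name no molecular identifiers.

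Counts were fitted with edgeR 4.0.16 in R 4.3.3 (quasi-likelihood test, TMM factors, filterByExpr with a minimum of 10 counts, which removed 3376 sites), with time as the group over all 6 libraries and Benjamini-Hochberg adjustment over all 177759 sites. SE is the log2 fold change divided by the square root of F. CPM are counts per 1000000 counts of the TMM-scaled library. Window sums were fitted the same way with the site table's factors. Deposited starts count from 0 and are printed from 1. Gene positions, neighbours and promoters are from RefSeq GRCh38.p14. RefSeq held no promoter entry for CSF2RB, whose strand is textbook knowledge. The fit was tested on simulated data.

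Named sites are, per gene, the site overlapping the start or nearest to it within 1 kb, the highest other site by mean CPM, and, at 6 h and 72 h, the called site with the greatest rise and fall among sites of mean CPM of at least 1 whose libraries did not overlap between groups. Like genes needed at least 5 sites and a window apart from the receptor's, with 0.1 CPM added before the log. Sites named for a rise or fall were picked by those values, which in part fixes their fold changes and p-values. The members, lists and rules were chosen with earlier results of these data known. Alternatives were 4 other scalings, DESeq2 1.42.0, no filter, a replicate block, a stricter threshold, other window sizes, site midpoints and leaving out each library. The requirement of the same call under 5 scalings was added after seeing the data.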

Additional observations from a re-analysis of the deposited data

How the results depend on the processing

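Across 14 alternatives, of which a stricter threshold involved no new fit, values for the named sites were counted as unchanged in 1037 cases. They lost the call in 98, gained it in 31 and reversed in 10. For the receptor windows, with 3 window rules in place of no filter, these were 221, 49, 6 and 12. A value not called in either fit was counted as unchanged even where its sign turned. The KIT window at 72 h against 0 h was such a value, 0.14 in the main fit and as low as -0.018 when a library was left out. With shared-peak scaling, the window changes at 72 h against 0 h were 1.11 for KIT (now called), 0.044 for CSF3R and 0.40 for FLT3. At 6 h against 0 h they were -0.22 for KIT (no longer called) and 0.009 for FLT3, and at 72 h against 6 h -0.13 for EPOR (no longer called), 0.81 for CSF1R (now called), 0.41 for CSF3R and 0.40 for FLT3. The start sites of KIT and CSF3R read 0.20 and 0.11 at 72 h against 0 h under this scaling, that of EPOR 0.042 at 72 h against 6 h, and the highest CSF1R site 0.66 at 72 h against 0 h. With loess offsets the windows at 72 h against 6 h read -0.16 for EPOR, 0.83 for CSF1R, 0.25 for CSF3R and -0.048 for FLT3, and FLT3 read -0.13 at 6 h and -0.17 at 72 h against 0 h. Loess turned the EPOR start site to 0.19 at 72 h against 6 h, the SWSAP1 start site to 0.075 and 0.081 at 72 h against 0 h and 6 h, the highest CSF1R site to 0.69 and 0.086, and the MRPS15 start site to 0.024 at 72 h against 6 h. Loess left 31 receptor sites and 10065 windows called at 72 h against 6 h. With total counts, KIT read -0.38 at 6 h and 0.64 at 72 h against 0 h, FLT3 -0.15 and -0.063, and at 72 h against 6 h CSF1R 0.50, CSF3R 0.10 and FLT3 0.088. The CSF2RB window at 6 h missed the threshold with relative log expression factors (0.24) and with DESeq2 (0.23). Under all 5 scalings together, 46 receptor sites were called at 72 h against 0 h and 21 at 72 h against 6 h. The causes of these shifts were not tested, beyond the scalings being set from different sites.

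Windows of 10 kb left 24, 31 and 27 receptor sites called (6 h and 72 h against 0 h, then 72 h against 6 h), since they hold fewer sites. They gave -0.33 for CSF2RB at 6 h, 0.33 for KIT at 72 h against 6 h, and 0.91, 1.57 and 0.66 for FLT3 in the 3 comparisons. Windows of 100 kb, which hold more sites, gave 120 and 78 called sites at 72 h against 0 h and 6 h. There the windows read -0.062 (KIT), 0.062 (CSF2RB), -0.076 (CSF3R) and -0.25 (FLT3) at 6 h, 0.17 (CSF1R) at 72 h against 0 h, and 0.083 (KIT) and -0.24 (FLT3) at 72 h against 6 h.

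An adjusted p under 0.01 with an absolute log2 fold change above 1 left 33 receptor sites of 41756 sites at 6 h against 0 h and 19 of 40148 at 72 h against 6 h, and 773, 7324 and 1467 windows in the 3 comparisons. Values do not change under it, and these window changes then miss it: EPOR -0.53 at 6 h and -0.80 from 6 to 72 h, KIT -0.52 and 0.65, CSF1R 0.51 at 6 h and 0.65 at 72 h against 0 h, CSF2RB 0.38, 0.82 and 0.43, CSF3R -0.66, -0.92 and -0.26, and FLT3 -0.29, -0.56 and -0.28 at 6 h and 72 h against 0 h and at 72 h against 6 h.

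Leaving out each library in turn gave 26 to 54 receptor sites and 44546 to 82983 sites in all called at 72 h against 6 h, lowest without the second 72 h library. The window changes ran from 0.075 to 0.57 (CSF2RB), -0.42 to -0.22 (FLT3) and -0.72 to -0.34 (KIT) at 6 h, and from 0.25 to 0.73 (CSF2RB), -0.35 to -0.11 (CSF3R) and -0.35 to -0.15 (FLT3) at 72 h against 6 h. The CSF3R step lost its call without the second 6 h library or either 72 h library, and the FLT3 step also without the first 0 h library. The FLT3 change at 6 h lost it without either 0 h library or the first 6 h library.

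Libraries share replicate numbers, and deviations from the group means correlated by 0.13, 0.08 and 0.12 between times. Counting noise at weak sites can lower such correlations, so they cannot tell whether the numbers pair the samples. The main fit did not pair them. A replicate block called the CSF1R window at 72 h against 6 h (0.14, adjusted p = 0.036) and changed no other receptor window call. It moved no count of called receptor sites by over 1.5 times, though some named sites gained a call, the highest CSF1R site among them (0.39 at 6 h and -0.31 at 72 h, now called).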

Other observations

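The authors' deposited table gives each site a class name. Of the 111 receptor sites, 90 were classed static in the authors' deposited table, 81.1% against 79.2% of all sites, and for EPOR and KIT all 13 and all 12 sites were. Of the 21 others, the class name matched the sign of the 72 h log2 fold change in the authors' deposited table in 12: 4 of 12 sites with an upward name had a negative value and 5 of 9 with a downward name a positive value. Over all such sites in the authors' deposited table, the name matched in 58.9%, and 69.3% to 71.9% of each class had a positive value. The class names were therefore not used. The sign of the authors' deposited 72 h log2 fold change was that of the edgeR value in 108 of the 110 tested receptor sites, and at 6 h in 104.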
